A study of Mus musculus with 2 samples.

Results

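Vascular growth factors and endothelial genes were examined in newborn K5-/- mouse skin, which has no keratin 5, and in newborn wild type skin. The 10 genes were the secreted factors Vegfa and Adm, the receptor genes Kdr, Flt1, Tek, Tie1 and Eng, and the endothelial genes Pecam1, Cdh5 and Vwf. Every probe set that the platform annotation assigns to exactly 1 of these symbols was taken, which gave 13 probe sets of the 10833 single-symbol probe sets on the array. Flt1, Tie1 and Vwf had 2 probe sets each and the other 7 genes had 1.

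The K5-/- group was RNA of 6 mice without keratin 5, and the wild type group was RNA of 6 wild type mice, all taken directly after birth. Each group's pooled RNA was hybridised to a single array (2 arrays in all), so there is no replicate, no test was possible, and the spread between animals cannot be seen. No Cre, inducing agent or transgene is named in the labels, and the strain and sex are not given in the sources used here. Keratin 5 is a filament protein of basal keratinocytes, and its loss serves as a model of epidermolysis bullosa simplex, a skin blistering disorder. The series asked which genes, inflammatory cytokines in particular, differ in this skin.

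Vegfa encodes vascular endothelial growth factor A, which in skin is made largely by keratinocytes and acts on endothelial cells through the receptors encoded by Kdr and Flt1. Adm encodes adrenomedullin, a vasodilator peptide that acts through the calcitonin receptor-like receptor together with an accessory protein of the Ramp family. Transcription of both factors is known to be induced by hypoxia and by other stress. Tek and Tie1 encode the receptors of the angiopoietin system, Eng encodes endoglin, a co-receptor for ligands of the TGF-beta and BMP family, and Pecam1, Cdh5 and Vwf are standard markers of endothelial cells.

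Values are MAS5 signals, the linear intensity that the Affymetrix algorithm gives for a probe set. Signals below 246.7 units, the 40th percentile of all values, were raised to that floor before ratios were taken, and a probe set that exceeded the floor on either array is called measured. Of the 13 probe sets, 10 exceeded the floor on both arrays and 3 lay under it on both. Agreement between probe sets was judged from genes with several probe sets that each exceeded the floor on both arrays. Over 838 such genes the log2 ratios had a within-gene standard deviation of 0.30. Probe sets of a gene share the same arrays, so this spread holds no variation between animals or between hybridisations. The source name says epidermis, but the titles and the extraction text say skin. Transcripts of dermis, muscle and blood were bright on both arrays, among them Col1a1 at 48707 in K5-/- and 39256 in wild type, and Hba-a1, which encodes alpha globin, at 47545 in K5-/- and 40590 in wild type. In such bulk tissue, more cells of a type and more RNA per cell cannot be told apart. Krt5 itself was under the floor on both arrays (81.2 in K5-/- and 46.6 in wild type), as were Krt14 and Krt15, so the deleted gene could not serve as a check of the labels.

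Both secreted factors had higher signals in K5-/- skin. Adm read 968 in K5-/- skin and 325 in wild type skin, a 2.98-fold difference and a log2 ratio of 1.58. Vegfa read 681 in K5-/- skin and 251 in wild type skin, a 2.71-fold difference and a log2 ratio of 1.44. Both ratios exceed the 0.30 spread between probe sets of a gene, which pools genes of all signal levels above the floor. Among all measured probe sets with mean signals of 424 to 731 units, where both genes lie, log2 ratios had a standard deviation of 0.45. Among all 7067 measured probe sets, 0.269% had a log2 ratio at least as high as that of Adm and 0.368% one at least as high as that of Vegfa. The wild type signal of Vegfa stood only 1.02 times above the floor, and that of Adm 1.32 times, so each ratio rests on a dim wild type value. With the floor raised to the 60th percentile, 659.7 units, the wild type values fell under it and the ratios became lower bounds, of 0.55 for Adm and 0.05 for Vegfa on the log2 scale.

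The 250 bases before the annotated start of Adm, and of the more upstream of the 2 annotated Vegfa starts, are shown because these were the members with the highest ratios. Sequences are from RefSeq, build GRCm38.p6, written 5′ to 3′ on the gene's strand, and capitals mark matches on either strand to the HIF core (ACGTG or GCGTG), the letters bound by hypoxia-inducible factors, and to the GC box (GGGCGG). No matches overlapped.
Adm, chr7:110627407-110627656, plus strand: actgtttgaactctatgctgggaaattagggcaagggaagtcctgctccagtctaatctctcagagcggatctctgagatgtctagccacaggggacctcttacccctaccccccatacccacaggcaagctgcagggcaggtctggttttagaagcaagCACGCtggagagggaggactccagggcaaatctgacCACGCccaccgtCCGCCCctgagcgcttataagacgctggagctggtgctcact
Vegfa, chr17:46032378-46032627, minus strand: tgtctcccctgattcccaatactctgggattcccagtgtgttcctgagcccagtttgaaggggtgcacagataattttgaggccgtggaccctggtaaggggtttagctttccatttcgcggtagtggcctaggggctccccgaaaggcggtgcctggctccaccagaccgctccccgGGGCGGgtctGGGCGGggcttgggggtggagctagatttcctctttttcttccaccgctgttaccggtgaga
The Adm window held 2 HIF core matches, with first bases 90 and 54 bases before the start, and 1 GC box. The Vegfa window held 0 HIF core matches and 2 GC boxes. The window of the other annotated Vegfa start, at chr17:46025164-46025413 and not printed, held 2 HIF core matches, with first bases 218 and 211 bases before that start, and 1 GC box. This window lies downstream of the upstream start, so it is inside the gene and not in front of it. Of 32851 windows of this length in the same table, 38.6% held a HIF core match and 32.7% a GC box. The AP-1 motif (TGACTCA or TGAGTCA), present in 4.46% of the windows, and a TATAAA box on the gene strand, present in 7.59%, were in none of the 3 windows. Among the other members with a window, Kdr held 2 HIF core matches and Flt1 held 1, while Eng, Tek and Tie1 held 0. All these matches describe letters only and say nothing about binding.

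**Figure D1:**
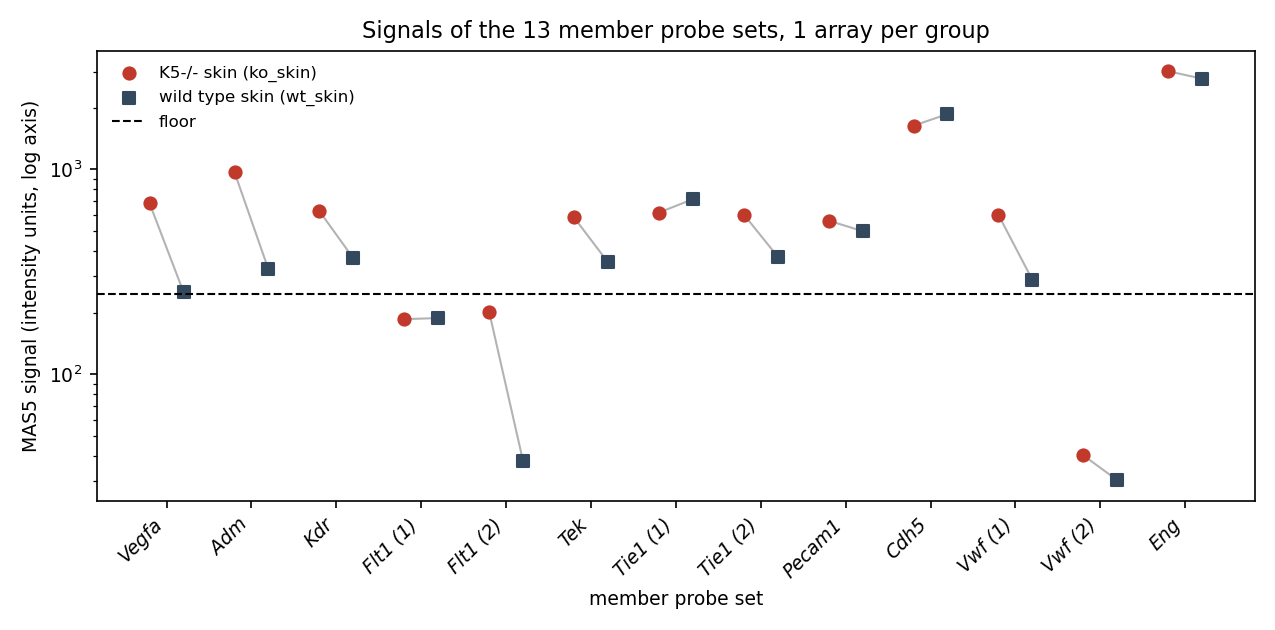
MAS5 signal of the 13 member probe sets on a log axis, K5-/- skin as circles and wild type skin as squares, 1 array each. The dashed line is the floor at 246.7 units, and (1) and (2) are the brighter and the dimmer probe set of a gene. Vegfa, Adm, Kdr, Tek and the brighter Vwf probe set were higher in K5-/- skin, while Cdh5, Eng and Pecam1 nearly coincided, and 3 probe sets lay under the floor on both arrays. The brighter Tie1 probe set was lower in K5-/- skin and the dimmer one higher.

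Of the receptor genes, Kdr and Tek were higher by less than 2-fold. Kdr, the main signalling receptor for VEGF-A on endothelial cells, read 625 in K5-/- skin and 368 in wild type skin, a 1.70-fold difference with a log2 ratio of 0.77. Tek, the angiopoietin receptor, read 582 in K5-/- skin and 352 in wild type skin, a 1.65-fold difference with a log2 ratio of 0.73. Both exceed the 0.30 spread between probe sets, yet 3.66% of all measured probe sets had a log2 ratio at least as high as Kdr and 4.26% one at least as high as Tek.

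Flt1, which binds VEGF-A tightly and can act as its decoy, was not measurable at this floor. The brighter Flt1 probe set read 186 in K5-/- skin and 188 in wild type skin. The dimmer one read 202 in K5-/- skin and 37.6 in wild type skin, so the probe sets of this gene differed from each other. With the floor lowered to the 25th percentile, 86.9 units, the dimmer probe set was at least 2.32-fold higher in K5-/- skin and the brighter one had a log2 ratio of -0.02.

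Tie1, an endothelial receptor that modulates Tek signalling, gave opposite directions from its probe sets. The brighter probe set read 615 in K5-/- skin and 715 in wild type skin, a log2 ratio of -0.22. The dimmer one, whose identifier carries the suffix that marks probes shared with other sequences, read 602 in K5-/- skin and 375 in wild type skin, a log2 ratio of 0.68. The ratios differed by 0.90, and of the 838 genes with several probe sets that each exceeded the floor on both arrays, 38 (4.53%) had a range at least that wide. No direction is given for Tie1.

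Among the other endothelial genes only Vwf reached a 2-fold difference. Vwf, which encodes the clotting factor that endothelial cells store and secrete, read 600 in K5-/- skin and 289 in wild type skin on its brighter probe set, a 2.08-fold difference with a log2 ratio of 1.05. Its other probe set read 40.2 in K5-/- skin and 30.4 in wild type skin and was far under the floor. The Vwf ratio was under 2-fold with a pseudocount of 100 in place of the floor (0.85 on the log2 scale), with quantile normalization (0.92) and with lowess correction (0.93), and under the 60th percentile floor the probe set had no value.

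Eng, Cdh5 and Pecam1 had nearly equal signals on the arrays, with Eng and Cdh5 as the brightest members and Pecam1 a dimmer one. Eng read 3012 in K5-/- skin and 2768 in wild type skin, a log2 ratio of 0.12. Cdh5, which encodes VE-cadherin of the endothelial junction, read 1632 in K5-/- skin and 1861 in wild type skin, a log2 ratio of -0.19. Pecam1, a junctional adhesion molecule also carried by platelets and leukocytes, read 562 in K5-/- skin and 499 in wild type skin, a log2 ratio of 0.17. All 3 lie inside the 0.30 spread between probe sets of a gene.

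Counted together, 3 of the 10 measured member probe sets were at least 2-fold higher in K5-/- skin, namely Adm, Vegfa and Vwf, and 0 were lower by that much. Among all measured probe sets, 1.51% passed the same threshold upwards and 0.736% downwards. At a fold of 1.5 the member count was 6, with Kdr, Tek and the dimmer Tie1 probe set added, against 7.87% of all measured probe sets. The 10 member probe sets had a median log2 ratio of 0.71 and 8 were above 0, while all measured probe sets had a median of 0.04 with 54.7% above 0. Without Vegfa and Adm, the 8 endothelial probe sets had a median of 0.43, with 6 above 0. The members were chosen with earlier results of these arrays known, so their counts are a description.

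Higher ratios went together with dim signals among the members, and dim probe sets were also slightly higher in K5-/- skin across the array. Measured probe sets were divided into 5 equal bands by mean signal. The band from 424 to 731 units held 8 of the 10 measured members, among them the 3 past 2-fold, and over its 1413 probe sets the median log2 ratio was 0.10, 2.26% were at least 2-fold higher, and the central 95% ran from -0.83 to 0.98. Adm, Vegfa and Vwf lay above that range, and Kdr, Tek, Pecam1 and both Tie1 probe sets lay inside it. In the brightest band, which held Eng, the median was -0.06.

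**Figure D2:**
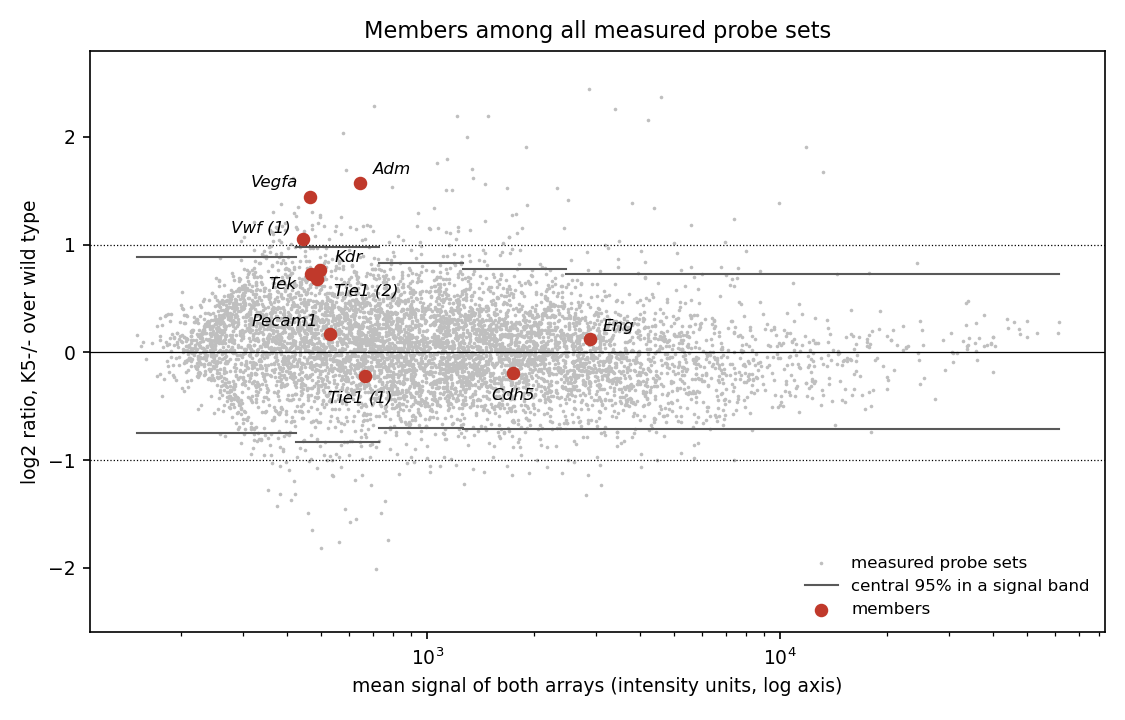
Log2 ratio of K5-/- over wild type against mean signal (log axis) for the 7067 measured probe sets in grey, with the 10 measured member probe sets in red, (1) and (2) as the brighter and dimmer probe set of a gene. Grey lines bound the central 95% of each of 5 signal bands, and dotted lines mark a 2-fold difference. Adm (1.58), Vegfa (1.44) and Vwf (1.05) lie above the lines of their band, and Cdh5 and Eng lie near 0.

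The relatives of Vegfa had log2 ratios between -0.42 and 0.06. Vegfb read 1327 in K5-/- skin and 1476 in wild type skin (log2 ratio -0.15), and Vegfd, a lymphatic growth factor, read 830 in K5-/- skin and 795 in wild type skin (0.06). Vegfc, the main growth factor of lymphatic vessels, read 247 in K5-/- skin and 330 in wild type skin (-0.42), the lowest of the measured ligands, with the K5-/- value just above the floor. Pgf, placental growth factor, was under the floor on both arrays. Vegfa was thus the 1 of 4 measured VEGF ligands past 2-fold, where 1.54% of 5976 measured genes were at least 2-fold higher and 0.703% lower by as much, and the median of the ligands was -0.05 against 0.04 for all measured genes.

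The other VEGF receptor genes above the floor had ratios like that of Kdr. Nrp1, the co-receptor neuropilin, read 2322 in K5-/- skin and 1316 in wild type skin on its brighter probe set (log2 ratio 0.82), and its other probe set had a log2 ratio of 0.45. Flt4, the receptor of VEGF-C on lymphatic endothelium, read 619 in K5-/- skin and 390 in wild type skin (0.67), with a further probe set under the floor. All 3 measured genes of this group were above 0, as were 53.9% of all measured genes, and 0 of the group were past 2-fold.

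None of the measured receptor parts for adrenomedullin had a ratio near that of Adm. Calcrl, the receptor itself, was under the floor on both arrays (60.1 in K5-/- skin and 72.1 in wild type skin). Ramp2, the accessory protein that makes it an adrenomedullin receptor on endothelium, read 2291 in K5-/- skin and 2302 in wild type skin, a log2 ratio of -0.01. Ramp1, which directs the receptor towards a related neuropeptide, read 2736 in K5-/- skin and 2540 in wild type skin (0.11). Ramp3 was under the floor in K5-/- skin alone, with a bound of -0.29 on the log2 scale. Ackr3, a scavenging receptor that also binds adrenomedullin, had the lowest log2 ratio of the group, -0.58, with 541 in K5-/- skin and 807 in wild type skin.

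In the angiopoietin system, the ligand Angpt2, a context-dependent antagonist of Tek released by activated endothelium, read 587 in K5-/- skin and 315 in wild type skin, a 1.86-fold difference with a log2 ratio of 0.90. Angpt1, the activating ligand, was under the floor on both arrays, as was Ptprb, a phosphatase that acts on Tek. Around endoglin, 7 of 9 measured genes of the BMP receptor group were above 0, against 53.9% of all measured genes. The median log2 ratio of the group was 0.12, with 0 past 2-fold. The group ran from Smad1, a BMP signal transducer, at -0.21 to Bmpr2, a BMP receptor, at a bound of 0.43. Acvrl1, the receptor that works with endoglin, was at 0.11, next to Eng itself at 0.12.

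A wider list of endothelial markers had 20 genes on the array, of which 17 were measured. In K5-/- skin 14 were higher and 3 lower, with a median log2 ratio of 0.27, and 2 were at least 2-fold higher: Vwf and Procr, the endothelial protein C receptor, which read 512 in K5-/- skin and 248 in wild type skin (2.06-fold, log2 ratio 1.05). Like Vwf, Procr was under 2-fold with the pseudocount (0.81), quantile normalization (0.91) and lowess correction (0.93), and without a value under the 60th percentile floor. The lower genes include Tie1, counted by its brighter probe set. Without it, 14 of 16 were higher and 2 lower, with a median of 0.27 and Cdh5 lowest at -0.19. Leaving out the members, 9 of 10 were higher with a median of 0.27. Among all measured genes 53.9% were higher. The summed signal of the 20 genes was 19588 in K5-/- skin and 16993 in wild type skin.

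The markers differed by brightness as the members did. The 7 genes with a mean signal of at least 731 units, Cdh5, Eng, Cd34, Emcn, Cldn5, Sox18 and Rasip1, had a median log2 ratio of 0.12, with a range of -0.19 to 0.33. The 10 dimmer genes had a median of 0.58 and ran from -0.22, the brighter Tie1 probe set, to 1.05. All measured genes at or above 731 units had a median of -0.00469, and those under it a median of 0.11. Cldn5, a tight junction protein of endothelium, read 1765 in K5-/- skin and 1752 in wild type skin, and Cd34 read 1791 in K5-/- skin and 1922 in wild type skin. Thbd, which encodes thrombomodulin, had a log2 ratio of 0.89 on its brighter probe set and 0.21 on the other.

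Genes listed for endothelial activation were mostly higher, 4 of 5 measured, with a median log2 ratio of 0.46 and 0 past 2-fold. For all measured genes the shares were 53.9% higher and 1.54% at least 2-fold higher. In bulk skin these values cannot be assigned to endothelium. Plat, tissue plasminogen activator, was at 0.89 (1632 in K5-/- skin and 879 in wild type skin), and the leukocyte adhesion genes Icam1 and Vcam1 were at 0.69 and 0.46. The dimmer Vcam1 probe sets gave 0.35 and, with K5-/- skin under the floor, a bound of -0.02. Sele, which encodes E-selectin, was above the floor in K5-/- skin alone, with 302 there and 72.0 in wild type skin, so the ratio is at least 1.22-fold. Edn1, the vasoconstrictor endothelin, went the other way on both of its probe sets, with log2 ratios of -0.69 and -0.88. Of the pericyte and vascular smooth muscle markers, 8 of 11 measured were higher with a median of 0.26, from Acta2 at -0.67 to Pdgfrb, the pericyte receptor for PDGF-B, at 0.70.

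Macrophage, skeletal muscle and dermal fibroblast markers were mostly higher on the K5-/- array too, beside 53.9% higher among all measured genes. The part of other cell types in the endothelial values was not tested. Of 9 measured macrophage and monocyte markers 8 were higher, with a median log2 ratio of 0.49. Summed over the 13 such genes on the array, the signal was 12574 in K5-/- skin and 9318 in wild type skin. Adgre1, the macrophage marker known as F4/80, was the highest at 0.97 and Mpeg1 the lowest at -0.25, while Msr1, Itgam, Ptprc and Fcer1g were under the floor on both arrays. All 9 skeletal muscle markers were higher, with a median of 0.23 and summed signals of 83536 in K5-/- skin and 68475 in wild type skin, from Des at 0.03 to Myh8, a perinatal myosin, at 0.94. Of 10 dermal fibroblast markers 7 were higher, with a median of 0.17, summed signals of 194028 in K5-/- skin and 168586 in wild type skin, a lowest ratio for Thy1 (-0.54), and Pdgfra 2.03-fold higher on the brightest of its probe sets, against a bound of 0.34 (log2) on a dimmer one. The 12 measured keratinocyte markers were evenly split, 6 higher and 6 lower, with a median of 0.00312 and summed signals of 224961 in K5-/- skin and 200166 in wild type skin over 15 genes. Ivl, which encodes involucrin of the cornified envelope, was the highest at 1.27 and Itgb4, an integrin of basal keratinocytes, the lowest at -0.56.

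Platelets also carry Vwf and Pecam1, and their part in those signals was not tested. Of 12 listed platelet and megakaryocyte genes, 6 were on the array. Of these, 5 were under the floor on both arrays, among them Pf4 at 79.6 in K5-/- skin and 75.0 in wild type skin. The sixth, Gp9, read 200 in K5-/- skin and 265 in wild type skin, where alone it was above the floor. A value under the floor does not show absence, since Krt5 was under it in wild type skin too. The summed signal of the 6 genes was 596 in K5-/- skin and 744 in wild type skin. Of the erythroid genes, Hba-a1 and Alas2 were measured, at log2 ratios of 0.23 and 0.40, and 4 were under the floor on both arrays. The summed signal of the 6 erythroid genes on the array was 49334 in K5-/- skin and 41875 in wild type skin.

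Vegfa and Adm are both classical targets of hypoxia-inducible factors, and whether hypoxia had a part in their ratios was not tested. The hypoxia list holds further targets and regulators of the pathway, but not Angptl4, which is given with the other angiogenic factors. Of 32 measured genes of the hypoxia list, 17 were higher and 15 lower, with a median log2 ratio of 0.02. All measured genes had a median of 0.04, with 53.9% higher and 1.54% at least 2-fold higher. The 2 listed genes past 2-fold were Adm and Vegfa themselves, and without them 15 were higher and 15 lower with a median of 0.00356. Next came Bhlhe40, a stress-responsive repressor, at 0.90 and Hk2, a hexokinase, at 0.75. The glucose transporter gene Slc2a1 was at 0.01, the stress gene Ddit4 at -0.00306, the lactate dehydrogenase gene Ldha at -0.35 and Pgk1, a glycolytic enzyme, lowest at -0.51. The regulators showed small differences, with Hif1a at 0.26, Epas1 at -0.05, Egln1, a prolyl hydroxylase that marks HIF for degradation, at -0.16, and Vhl at a bound of 0.31.

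Other secreted angiogenic factors were divided, with 3 of 7 measured genes higher and 4 lower. Ccn1, a matricellular protein that promotes vessel growth, read 3456 in K5-/- skin and 1202 in wild type skin, a 2.87-fold difference with a log2 ratio of 1.52, close to those of Adm and Vegfa but in a bright probe set. It stayed at least 2-fold higher under each alternative of scaling, floor, pseudocount and probe set choice that was run. Hbegf, a heparin-binding ligand of the EGF receptor, was at 0.91, and Pdgfa, a platelet-derived growth factor chain, was the lowest at -0.79. Angptl4, another hypoxia-responsive factor, gave a log2 ratio of -0.09 from its highest-mean probe set chosen by rule. The next gave 1.19 (936 in K5-/- skin and 411 in wild type skin). Its dimmer probe sets were above the floor in K5-/- skin alone, with bounds of 0.24 and 0.08. Since the probe set chosen by rule went against the others, no direction is given for Angptl4. Without Angptl4, 3 genes were higher and 3 lower. Of 6 measured angiogenesis inhibitors 5 were higher, against 53.9% of all measured genes, with a median of 0.28 and 0 past 2-fold. The inhibitors ran from Spry4, an intracellular inhibitor of receptor tyrosine kinase signalling, at -0.29 to Thbs2, thrombospondin, at 0.93. Thbs2 read 3709 in K5-/- skin and 1947 in wild type skin.

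**Figure D3:**
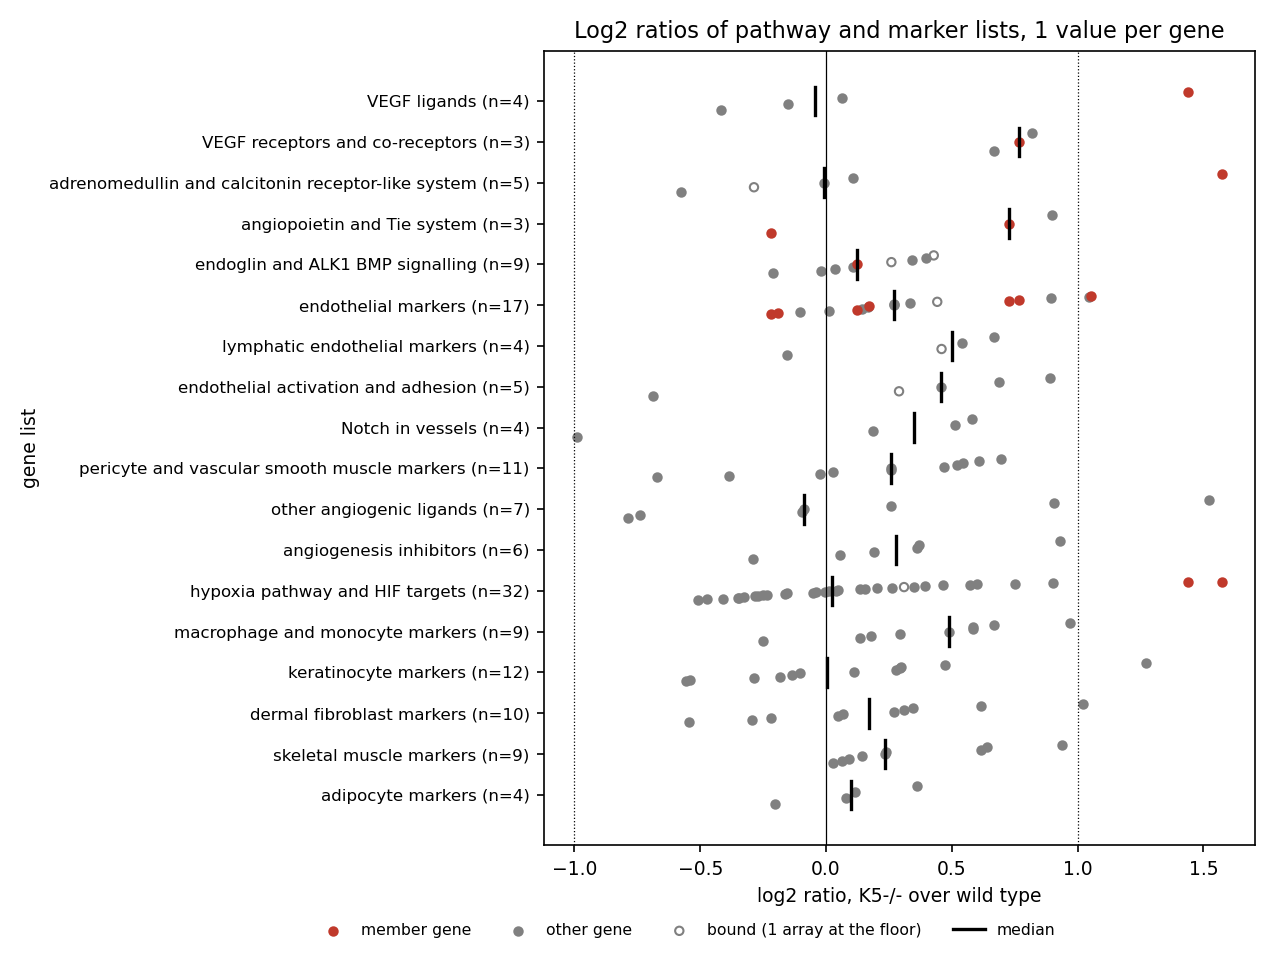
Log2 ratio of K5-/- over wild type for each measured gene of the pathway and marker lists with at least 3 measured genes, 1 value per gene (points), with list medians (black bars). Red points are members, open points are bounds with 1 array at the floor, and dotted lines mark a 2-fold difference. Adm and Vegfa stand apart at the right of the hypoxia list, whose median is 0.02, and the macrophage list has a median of 0.49.

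The order of the members was little altered by the scaling. Adm had log2 ratios of 1.33 to 1.58 and Vegfa of 1.15 to 1.44 over all settings other than the 60th percentile floor. Kdr ranged from 0.63 to 0.77, Tek from 0.59 to 0.73, Pecam1 from 0.06 to 0.17, Cdh5 from -0.21 to -0.18 and Eng from 0.12 to 0.17 wherever they were measured. Under the 60th percentile floor, 5 member probe sets remained measured and 0 were at least 2-fold higher.

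**Figure D4:**
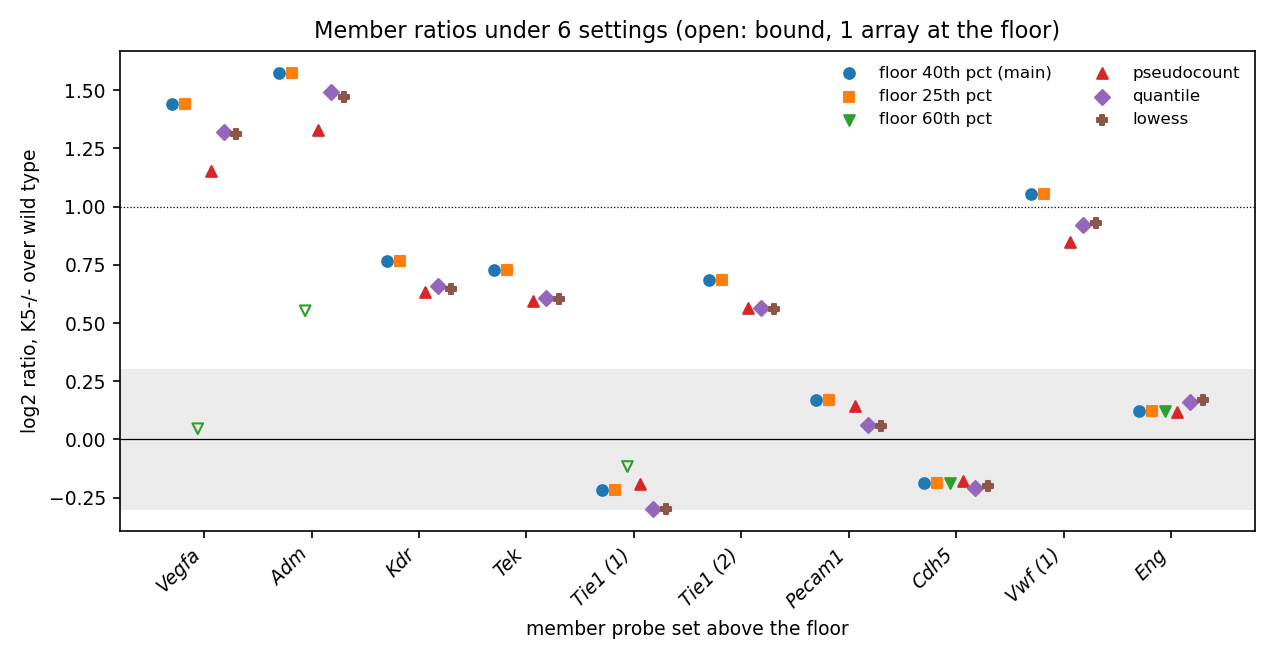
Log2 ratio of K5-/- over wild type of the 10 measured member probe sets under 6 settings of the floor, the pseudocount and the scaling. The grey area is 1 within-gene SD (0.30), the dotted line marks a 2-fold difference, and open symbols are bounds. Adm and Vegfa are above 2-fold in every setting but the 60th percentile floor, Vwf crosses the line, and Pecam1, Cdh5 and Eng stay in the grey area.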

How the data were processed

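Total RNA of newborn skin, pooled from 6 mice per group, was labelled with biotin and read on 1 array per group. The deposited values are intensities on a linear scale, 1 per probe set, and the authors made them with MAS5, per the submitters' processing notes; its version, scaling target and detection calls are not given in the sources used here. Of 12488 probe sets, 66 controls were left out, 10833 had 1 gene symbol in the platform annotation, 396 several and 1193 none. With 2 arrays, it is their number that limits precision.

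Both arrays were brought to an equal trimmed mean (2% trimmed at each end), with factors of 1.0001 and 0.99985, floored at the 40th percentile and taken to log2 (Python 3.11.15, numpy 2.4.6, pandas 2.3.3). A gene in a list was represented by its probe set with the highest mean. No test was run, since 1 array per group leaves no residual degree of freedom. The calculation was tested on simulated data with differences placed only in bright probe sets, so that run does not cover the ratios of dim members. The text names every probe set of the 10 genes, the receptors of the 3 ligand systems, and of each list the genes past 2-fold with its highest and lowest gene; other list genes given as examples were chosen after their values were seen. The members and the 20 lists were chosen with earlier results of these data known. Alternatives were other floors, a pseudocount of 100, quantile normalization, lowess (span 0.3, statsmodels 0.14.6), signals as deposited, plain probe sets, means over probe sets and a fold of 1.5.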

Additional observations from a re-analysis of the deposited data

How the results depend on the processing

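All 55 recomputed log2 ratios of the member probe sets kept their sign, and 2 moved by more than 0.30, those of Adm (0.55) and Vegfa (0.05) as bounds under a 60th percentile floor. Another floor or a pseudocount cannot reverse a sign, and the signals as deposited were almost the same as the scaled ones. Only quantile normalization and lowess correction could have reversed a sign. The count of member probe sets at least 2-fold higher, 3, was 0 with that floor and 6 at a fold of 1.5. It was 2 (Adm and Vegfa) with the pseudocount, quantile normalization and lowess correction, and 4 under a 25th percentile floor, where the dimmer Flt1 probe set was added. Over all probe sets, 107 were at least 2-fold higher and 52 lower. A 25th percentile floor gave 256 and 133, and a 60th percentile floor 49 and 19. The higher and lower shares were 1.51% and 0.736%, against 1.32% and 1.02% with quantile normalization and 1.33% and 0.991% with lowess correction, and no setting moved the median of all probe sets by over 0.1.

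Of 162 recomputed list medians, 150 kept their sign and 158 moved by at most 0.30. The angiopoietin and Tie list was at -0.12 under the 60th percentile floor, where 1 gene was left, and the endothelial activation list at 0.10, where 2 were left. The other angiogenic ligands had a median of 0.24 from plain probe sets alone and of 0.26 from the mean over probe sets, since Angptl4 is then read from other probe sets. No paired analysis was possible because each group has 1 array. Signals near the floor limit the values of Vegfa, Adm, Vegfc, Vwf, Procr and Flt1. Lists without a gene whose probe sets disagree were added after seeing the data: the endothelial markers without Tie1 had a median of 0.27, and the other angiogenic ligands without Angptl4 one of 0.08.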

Other observations

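Lymphatic endothelial markers were mostly higher in K5-/- skin, 3 of 4 measured genes, with a median log2 ratio of 0.50 and 0 past 2-fold. Among all measured genes 53.9% were higher. Reln was above the floor in K5-/- skin alone, so its 0.46, which enters the median, is a bound. Lyve1, the hyaluronan receptor of lymphatic vessels that some skin macrophages also carry, read 943 in K5-/- skin and 649 in wild type skin (0.54). Flt4 was the highest at 0.67 and Pdpn, which keratinocytes and fibroblasts express as well, the lowest at -0.15. Prox1, the transcription factor that defines lymphatic endothelium, was under the floor on both arrays, with 18.0 in K5-/- skin and 11.8 in wild type skin.

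Of the Notch genes that act in vessels, 3 of 4 measured were higher, against 53.9% of all measured genes, with a median log2 ratio of 0.35. In bulk skin none of these values can be assigned to vessels. Notch1 and its target Hey1 had log2 ratios of 0.51 and 0.58 (Hey1 read 989 in K5-/- skin and 661 in wild type skin), and Rbpj was at 0.19. The ligand gene Jag2, which keratinocytes also express, was the lowest at -0.99, with 436 in K5-/- skin and 867 in wild type skin. Notch4, the endothelial receptor, was under the floor on both arrays. Adipocyte markers, from the deepest layer of skin, were near equal, 3 of 4 higher with a median of 0.10, from Fabp4 at -0.20 to Lpl at 0.36.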
